A study of Mus musculus with 6 samples.

Results

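The genes of the HIRA complex, the genes of the histone variant H3.3 and the other chaperones of H3.3 were examined in satellite cells, the muscle stem cells that rebuild fibres after injury. The 10 genes were chosen by name from the 55536 genes of the count files: Hira, Ubn1, Ubn2, Cabin1, Asf1a, Asf1b, H3f3a, H3f3b, Atrx and Daxx. Their identifiers were matched to GENCODE M21, an annotation on mm10, and all 10 were found and passed the filter on low counts. RNA-seq was performed on 3 control and 3 cKO samples. Control mice were Pax7CreErt2;Hira fl/+ and cKO mice were Pax7CreErt2;Hira fl/fl, so that both groups carried the tamoxifen-dependent Cre recombinase, made where Pax7 is expressed, and at least 1 floxed Hira allele. The control cells are therefore not wild type at Hira, although the sample labels call them WT. The mice were adult C57BL/6J males of 8 to 12 weeks that received a tamoxifen diet for 2 weeks and regular food for 1 week. Tibialis anterior muscles were injured with barium chloride, and 5 days later cells were sorted that carried CD34 and ITGA7 and lacked CD45, TER119 and SCA1. The sorted cells were grown for 48 h at low density in high serum before RNA extraction. The RNA samples of a group are described as independent, but whether each came from a separate mouse is not given in the sources used here, so the p-values measure the spread between these samples. The exon removed by recombination of the floxed allele is also not given in the sources used here.

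H3.3 is the H3 variant that is placed into chromatin outside DNA replication. HIRA works as a complex with the ubinuclein subunits UBN1 and UBN2 and with CABIN1, takes H3.3-H4 from ASF1 and deposits it at active genes and regulatory regions. ATRX and DAXX form a separate pathway that places H3.3 in heterochromatin, at telomeres and at repeats. In the mouse, the same H3.3 protein is made from H3f3a and H3f3b.

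Between 47944477 and 63323577 reads were counted on genes in each sample, and the TMM scaling factors lay between 0.991 and 1.02. By the quasi-likelihood test of edgeR, with p-values adjusted by the Benjamini-Hochberg method, 3549 of 22404 tested genes (15.8%) passed an adjusted p of 0.05, with 6.46% of the tested genes lower and 9.38% higher in cKO. Markers of the sorted population were well covered: Myod1 lay at 780 ± 13.8 CPM in control samples and at 699 ± 18.9 in cKO samples (SD, n = 3 each), and Pax7 at 39.7 ± 0.770 and 34.8 ± 1.83 CPM. CPM here are counts scaled to the TMM-adjusted library size. Of the 10 satellite cell and myoblast markers 7 were downregulated. The other 3, Cdh15, Sdc4 and Chrdl2, were not called and had estimates above 0. The 10 markers summed to 7164 to 7298 CPM in control and 6221 to 6744 CPM in cKO. Most of these sums came from Des and Myog, with control means of 3228 and 2131 CPM. Markers of cells that the sort should have removed also moved: all 12 leukocyte markers were upregulated in cKO, with sums of 124 to 130 CPM in control and 257 to 299 CPM in cKO, and none of them was at 0. Of 8 endothelial markers 5 were upregulated (sums of 16.5 to 18.6 against 26.1 to 30.8 CPM), and of 8 fibroblast markers, 7 of them tested, 5 were (1100 to 1180 against 1476 to 1622 CPM). Most of the leukocyte sum came from Lyz2, with a control mean of 81.1 CPM. Most of the fibroblast sum came from Col1a2 and Col3a1, with control means of 591 and 397 CPM. Of 18 proliferation markers 7 were downregulated and the other 11 were not called, with sums of 2015 to 2033 CPM in control and 1769 to 1881 CPM in cKO. The part of these shifts in the values of the 10 genes was not tested. In bulk samples, more or fewer cells of a type cannot be told apart from more or less RNA per cell. Cdh5 of the endothelial and Pdgfra of the fibroblast list are among the genes that the paper reports as upregulated in Hira-deficient satellite cells. It also reports staining of such isolated cells for VE-Cadherin, the product of Cdh5. Whether the genes of these lists were expressed by satellite cells or by other cells was not tested here.

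How the reads had been counted decides what the values of several of these genes cover, and was read from the files. Of 765 annotated genes whose exon bases all lie in exons of other genes on the same strand, 0 had a count in any sample. Of 460 genes whose exon bases all lie in exons on the opposite strand, with none shared on their own strand, 0 had a count either. By contrast, 69.5% of the 43640 genes that share no exon base had counts. Reads that touched exons of more than 1 gene were thus in neither gene's count, and strand had not been used to separate them, although the library kit keeps strand. Among the 10 genes, this concerned Hira, Asf1a and H3f3a most.

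Hira, the targeted gene and the scaffold of the complex, lies on the plus strand of chromosome 16 from 18877037 to 18970309 in mm10 and has 25 exons in its main transcript. A second annotated protein-coding gene on the same strand, Gm28539 (18836584 to 18956247), joins 2 upstream exons to most of the Hira exons. Its exons cover 2778 of the 6215 exon bases of Hira (44.7%). In the main transcript, 21 exons are wholly shared with Gm28539, exon 24 is partly shared, and exons 1, 21 and 25 are not shared. The shared part is 91.1% of the 3048 coding bases. Gm28539 had 0 counts in all 6 samples, and 0 of its 2982 exon bases are free of another gene's exons. The deposited Hira count therefore comes from 1440 unshared bases of the main transcript, of which 454 are in the first and 870 in the last exon, and from exons of other Hira transcripts. It holds no read of most of the coding sequence, and since the removed exon is not known here, it is no check of whether the floxed part was lost. The paper checked the deletion by other means. It reports a sharp fall of Hira by RT-qPCR in cKO satellite cells, and that HIRA protein was not detected in them.

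**Figure D1:**
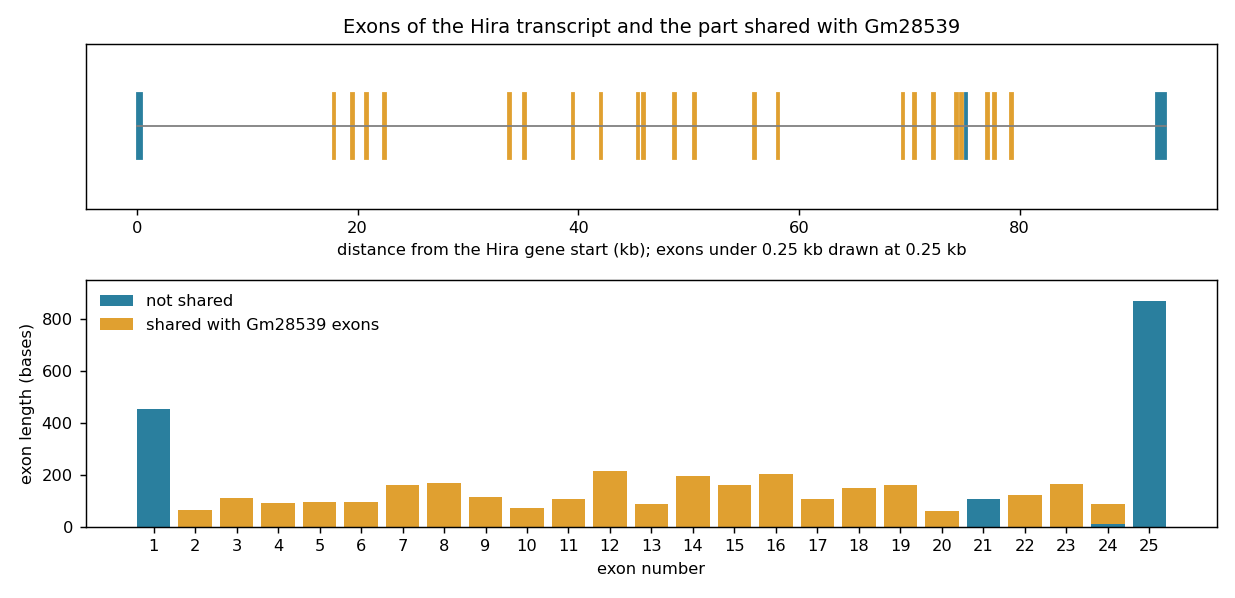
Exons of the main Hira transcript, placed by distance from the gene start in kb (top) and drawn by length in bases (bottom), with the bases shared with Gm28539 exons in yellow and the others in blue. Exons 1, 21 and 25 are the ones without shared bases, and 1440 of the 4218 exon bases of this transcript are not shared.

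Hira was downregulated in cKO, to 74.1% of the control level by the fitted fold change. It had 375, 348 and 341 counts in control replicates 1, 2 and 3 and 161, 293 and 272 counts in cKO replicates 1, 2 and 3. Scaled, these were 6.69, 5.54 and 5.61 CPM in control and 3.34, 4.88 and 4.86 CPM in cKO. The groups did not overlap, but the highest cKO sample lay only 12% below the lowest control sample. Control replicate 1 was the highest and cKO replicate 1 the lowest of all 6 samples. The means were 5.95 ± 0.645 CPM and 4.36 ± 0.882 CPM (SD, n = 3 each), and the log2 fold change was -0.43 (standard error, SE, 0.12, 95% interval -0.69 to -0.17, adjusted p = 0.0237). Without control replicate 1 the log2 fold change was -0.34 and the adjusted p 0.104, and without cKO replicate 1 they were -0.29 and 0.0459. Over the 14 alternatives tried, the adjusted p ranged from 2.9e-05 to 0.104. At the 161 counts of cKO replicate 1, counting error alone is 7.88% of the value.

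Of the other members of the complex and its pathway, 0 of 9 passed an adjusted p of 0.05, so that 1 of the 10 genes was called against 15.8% of all genes tested. Of the same 9 genes, 2 had an unadjusted p under 0.05 in edgeR, and 0 were called by DESeq2. The estimates of the 9 genes lay between -0.13 and 0.04 on the log2 scale. Their 95% intervals reached from -0.23 to 0.13 at the extremes, and 7 of the 9 held 0. The median of the 10 log2 fold changes was -0.04, beside -0.001 over all tested genes. The samples of the groups did not overlap in 4 of the 10 genes, beside 31.8% of all tested genes. In these 4 the cKO samples were the lower ones, beside 15% of all tested genes, and in 0 members they were the higher ones, beside 16.8%. The 4 were Hira, Ubn2, Asf1b and Daxx.

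**Figure D2:**
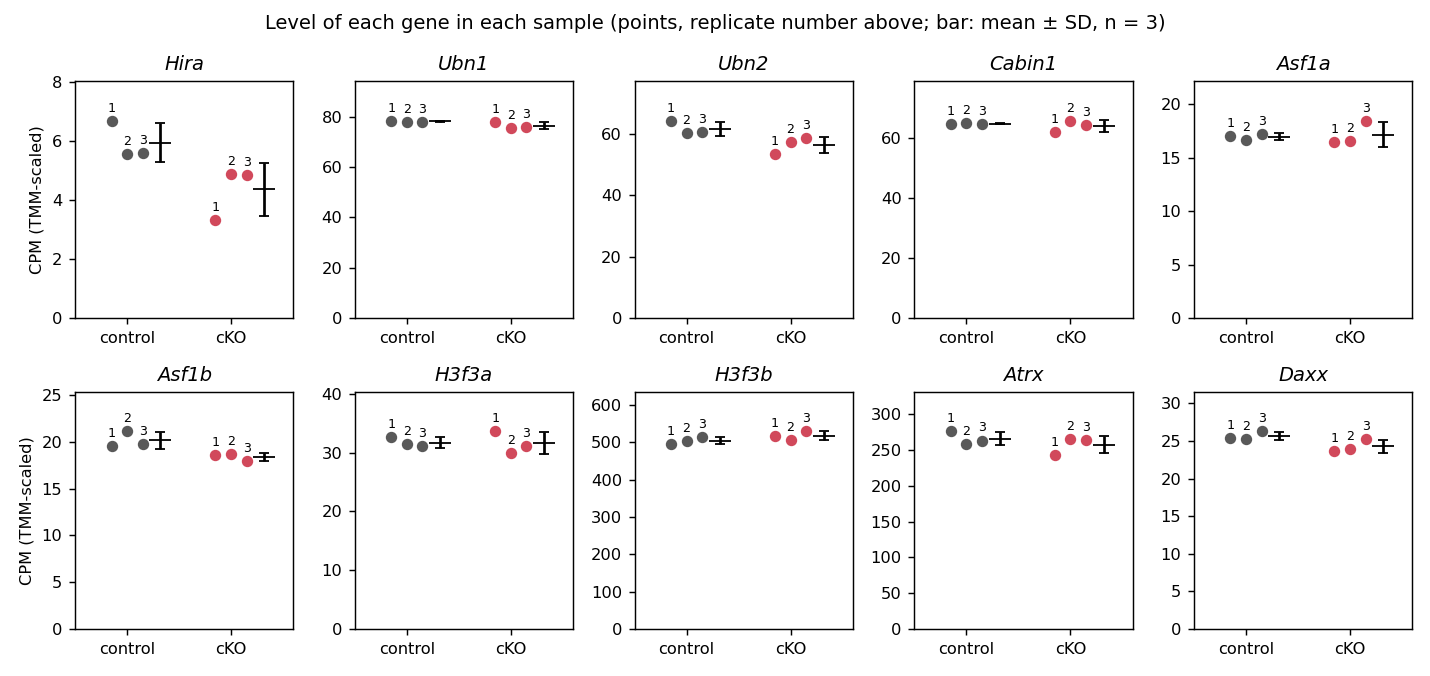
Level of each of the 10 genes in CPM (each panel from 0) in the 3 control (grey) and 3 cKO (red) samples, with the replicate number above each point and the mean ± SD beside them. Hira shows the widest gap relative to its level, with means of 5.95 and 4.36 CPM, and H3f3b is the highest of all, at 494 to 530 CPM.

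The ubinucleins, which bind HIRA and recognise H3.3, differed in their estimates. Ubn2 (chromosome 6, 38433950 to 38524825) had 64.2, 60.2 and 60.4 CPM in control and 53.3, 57.3 and 58.4 CPM in cKO. All cKO samples were lower, by at least 2.91%, and cKO replicate 1 was again the lowest. The log2 fold change was -0.13 (SE 0.04, 95% interval -0.22 to -0.04), with an adjusted p of 0.0517, just outside the threshold. Ubn2 passed it with RLE size factors (0.0484), without a filter on low counts (0.0145), among protein-coding genes only (0.0312) and without cKO replicate 2 (0.0403) or cKO replicate 3 (0.0466). In the other 9 of the 14 alternatives it did not pass, with an adjusted p of up to 0.217 without control replicate 1. Its processed pseudogene Gm6418 held 3.36% to 4.55% of the summed counts of both.

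Ubn1 (chromosome 16, 5050057 to 5086289) stayed close to the same level in all samples, with 78.4, 77.9 and 77.9 CPM in control and 77.9, 75.6 and 75.7 CPM in cKO. The groups overlapped, and the log2 fold change was -0.03 (95% interval -0.10 to 0.04, adjusted p = 0.597). The lower end of the interval is a change of -6.6%. The count ratio of Ubn1 to Ubn2, which no scaling can alter, was 1.22, 1.29 and 1.29 in control and 1.46, 1.32 and 1.30 in cKO. It was higher in every cKO sample, but by only 0.0013 at the nearest pair of samples, and the exact two-sided permutation test gave p = 0.1, the smallest value that 3 samples against 3 allow.

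Cabin1 (chromosome 10, 75646112 to 75764341), which encodes the calcineurin-binding subunit of the complex, had 64.4, 64.8 and 64.6 CPM in control and 61.8, 65.6 and 64.2 CPM in cKO. The control values fell within the range of the cKO values. Its log2 fold change of -0.01 (95% interval -0.09 to 0.06, adjusted p = 0.843) turned to 0.01 with total counts as the scaling.

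ASF1A and ASF1B are the paralogous chaperones that carry H3-H4 dimers from the cytosol. ASF1A is known as the partner of HIRA, and ASF1B is known for its expression in dividing cells. Asf1b (chromosome 8, 83955507 to 83970197) had 19.5, 21.1 and 19.8 CPM in control and 18.6, 18.7 and 17.9 CPM in cKO. The cKO samples were all lower, by at least 4.22%, and the log2 fold change was -0.13 (SE 0.05, 95% interval -0.23 to -0.03). The adjusted p of 0.0861 did not pass, and it ranged from 0.0522 to 0.341 over the alternatives. The proliferation markers, given above, had lower sums in the same samples, and their part in the Asf1b values was not tested. By staining of injured muscle, at a later day and not in culture, the paper found no significant effect on proliferation of cKO satellite cells.

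Asf1a (chromosome 10, 53596757 to 53609225) shares 1748 of its 3638 exon bases (48.0%) with exons of Mcm9 on the opposite strand, so its count rests on the remainder. It had 17.0, 16.6 and 17.2 CPM in control and 16.4, 16.5 and 18.5 CPM in cKO. The control values lay inside the cKO range, with a log2 fold change of 0.02 (95% interval -0.10 to 0.13, adjusted p = 0.893) that was -0.04 without cKO replicate 3. The ratio of Asf1a to Asf1b counts was 0.871, 0.787 and 0.870 in control and 0.882, 0.884 and 1.03 in cKO. All cKO samples had the higher ratio (exact two-sided permutation test, p = 0.1, the smallest possible), with a mean log2 difference of 0.14 that was 0.07 without cKO replicate 3.

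ATRX is a remodelling ATPase and DAXX the H3.3 chaperone bound to it. Atrx (chromosome X, 105797615 to 105929403) had 277, 259 and 264 CPM in control and 244, 266 and 264 CPM in cKO. The groups overlapped, and only cKO replicate 1 was below every control sample. The log2 fold change was -0.05 (95% interval -0.13 to 0.03, adjusted p = 0.486). Daxx (chromosome 17, 33909414 to 33915590) had 25.34, 25.29 and 26.29 CPM in control and 23.63, 23.94 and 25.29 CPM in cKO. Control replicate 2 and cKO replicate 3 were level to 0.00568%, so the groups were barely apart. Its log2 fold change was -0.08 (95% interval -0.17 to 0.02, adjusted p = 0.277). A rise above 2.4% lies outside the 95% interval for Atrx, and above 1.1% for Daxx.

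**Figure D3:**
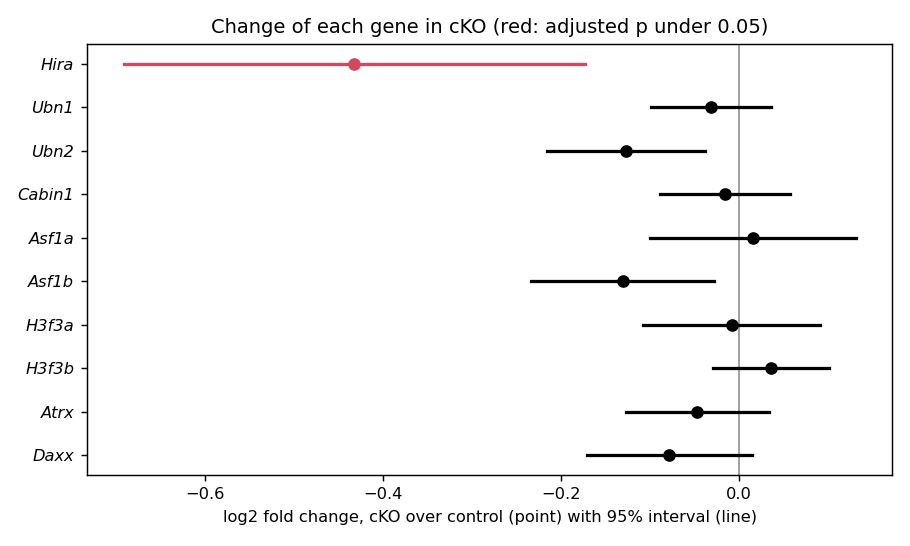
Log2 fold change of each of the 10 genes in cKO over control, with its 95% interval from edgeR's quasi-likelihood fit. Hira, at -0.43, is the gene with an adjusted p under 0.05; the intervals of Ubn2 and Asf1b lie below 0 without passing the adjusted threshold, and the other 7 cross 0.

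H3f3a and H3f3b encode the same protein from sequences that differ at 95 of 411 coding bases (76.9% identity), with 0 codons that differ after translation. H3f3a has left many processed pseudogenes, intronless copies of its mRNA, across the mouse genome. The reads had been aligned with Bowtie2, which does not split a read over an intron. A read over a junction of the H3f3a mRNA can therefore be matched over its whole length only at a pseudogene, where the exons lie side by side. A read with few bases beyond the junction could still be placed on H3f3a with mismatches. The alignments themselves were not inspected. The bases around the exon junctions of the coding sequence show how close the copies are, with 15 bases on either side and capitals where a base differs from H3f3a. At the junction after coding base 128 they read, 5′ to 3′:
H3f3a: acctcatcgttacaggcctggtactgtggc
H3f3b: GcctcaCcgCtacaggccAggGacCgtggc
Gm6421: acctcatcgttacaggcctggtactgtggc
Gm12657: acctcatcgttacaggcctggtactgtggc
H3f3c: acctcatcgttacaggcctggCactgtggc
H3f3a-ps2: acctcatcgttacaggcctggtactgtggc
At the junction after coding base 282 they read:
H3f3a: attggtgctttgcaggaggcaagtgaggcc
H3f3b: atCggtgcCCtTcaggaggcTagCgaAgcA
Gm6421: attggtgctttgcaAgaggcaagtgaggcc
Gm12657: attggtgctttgcaggaggcaagtgGggcc
H3f3c: attggtgctttgcaggaggcaagtgaggcc
H3f3a-ps2: attggtgctttgcaggaggcaagtgaggcc
The last 4 names of each set are the H3f3a pseudogenes with the most counts, each with 0 or 1 difference from H3f3a in these 30 bases, whereas H3f3b has 6 and 8. The first set of 30 bases lies in mm10 at chr13:117358480-117358509 in Gm6421 and chr4:94599498-94599527 in Gm12657. In H3f3c it lies at chr2:119665894-119665923 and in H3f3a-ps2 at chr16:91114457-91114486.

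Of the 75-base windows of the H3f3a coding sequence, the length of a read, 43.9% span a junction. Of these, 60.1% occur without a mismatch in a pseudogene of H3f3a and 100% with at most 2 mismatches. For H3f3b the junction windows gave 44.6% and 100%, matched to its own pseudogenes. Within exons, 91.5% of the coding windows also occur exactly in a pseudogene, compared with 14.8% for H3f3b.

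The deposited counts were then summed over each family. By sequence match (at least 80% identity over at least 75 bases of coding sequence), 65 annotated pseudogenes were assigned to H3f3a and 3 to H3f3b. H3f3a itself was given 1834, 1972 and 1890 counts (control) and 1622, 1799 and 1746 counts (cKO). Its pseudogenes together took 11607, 12816 and 12058 counts (control) and 10213, 11750 and 11073 counts (cKO). They thus held 86.3% to 86.7% of the counts of the family in every sample. The 5 with the most counts, Gm6421, Gm12657, H3f3c, H3f3a-ps2 and Gm14383, held 76.7% of the pseudogene counts. For H3f3b the pseudogene share was 4.87% to 5.66%, nearly all of it on Gm37486 and Gm6485. How much of these counts is RNA transcribed at the pseudogenes was not tested.

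Neither H3.3 gene passed the test. H3f3b (chromosome 11, 116021912 to 116027962) had 494, 504 and 515 CPM in control and 517, 506 and 530 CPM in cKO. The groups overlapped, with a log2 fold change of 0.04 (95% interval -0.03 to 0.10, adjusted p = 0.507). H3f3a (chromosome 1, 180800832 to 180813943) had 32.7, 31.4 and 31.1 CPM in control and 33.7, 29.95 and 31.2 CPM in cKO. The cKO samples were both the highest and the lowest, and the log2 fold change was -0.01 (95% interval -0.11 to 0.09, adjusted p = 0.943). Exons on the opposite strand cover 22.8% of its exon bases, mostly those of the lincRNA Gm17275 (18.2%) and of H3f3aos (4.57%).

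With the pseudogene counts added to each gene, the mean level of H3f3a in control was 235 CPM in place of 31.7 CPM. The log2 fold change of the H3f3a family was -0.01 (95% interval -0.09 to 0.07, adjusted p = 0.904) and that of the H3f3b family 0.03 (-0.03 to 0.10, adjusted p = 0.579). Of 25 H3f3a pseudogenes and 2 H3f3b pseudogenes that could be tested on their own, 0 passed an adjusted p of 0.05 in edgeR, and the H3f3a ones had a median log2 fold change of -0.02. Their unadjusted p was under 0.05 for 0 of the 27, and DESeq2 called 0 of them.

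How H3.3 mRNA was split between its genes hung on whether pseudogenes were included. By its own counts H3f3b exceeded H3f3a by 15.1 to 17.0 times in the 6 samples, and with the pseudogene counts by 2.19 to 2.43 times. The ratio of H3f3a to H3f3b was 0.0629 ± 0.0030 in control and 0.0611 ± 0.0035 in cKO (SD, n = 3 each). The groups overlapped (exact two-sided permutation test, p = 0.5), and with pseudogene counts the ratios were 0.441 ± 0.0177 and 0.429 ± 0.0203 (p = 0.5 in the same exact test). The summed level of both genes was 536 ± 9.64 CPM in the control group and 549 ± 12.4 CPM in the cKO group (SD, n = 3 each, exact two-sided permutation test, p = 0.2). With total counts as the scaling the cKO group was higher by 21.8 CPM in place of 12.7 CPM (exact p = 0.1, the smallest possible), and with single samples left out by 6.91 to 19.3 CPM. With pseudogenes the summed level was 768 ± 4.17 and 778 ± 17.3 CPM (exact p = 0.4).

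**Figure D4:**
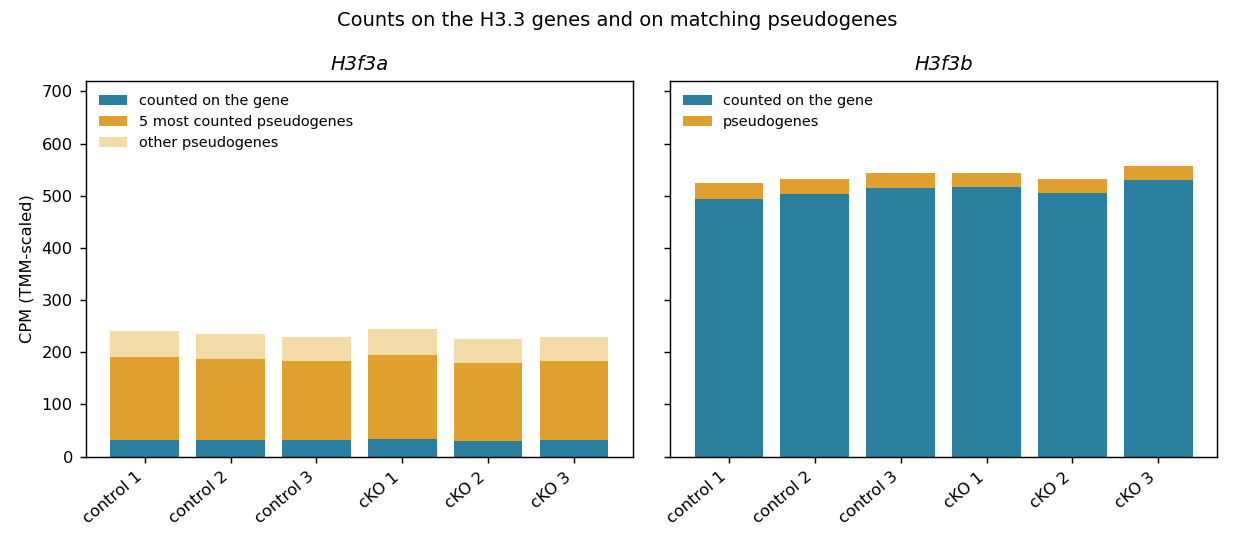
Level in CPM of H3f3a (left) and H3f3b (right) in each of the 6 samples as stacked bars from 0: counts on the gene in blue, on its 5 most counted pseudogenes (for H3f3b, on all its pseudogenes) in yellow and on the other pseudogenes in pale yellow. Pseudogenes make up 86.3% to 86.7% of the H3f3a bars and 4.87% to 5.66% of the H3f3b bars, and the heights do not separate control from cKO.

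Levels of different genes were compared per length. Per kilobase of annotated exon, H3f3b was the most abundant of the 10 genes in control, at 170 ± 3.51 RPKM (SD, n = 3), followed by Atrx at 12.2 ± 0.421. Ubn1 (9.44 ± 0.0371), H3f3a (9.06 ± 0.249), Asf1b (8.62 ± 0.369) and Daxx (8.14 ± 0.179) came next, and the range of each over the 6 samples overlapped that of the next in order. Below them were Cabin1 (5.31 ± 0.0173), Asf1a (4.66 ± 0.0820), Ubn2 (2.87 ± 0.107) and Hira (0.957 ± 0.104), each apart from the next. The deleted gene was thus the least abundant of the 10 by this measure, 3 times below Ubn2. Because shared bases give no counts, the length was also taken as the number of 75-base windows in single exons that occur in no other gene's transcripts. This length also leaves out windows over exon junctions, so it was shorter as well for genes that share no bases. For Cabin1 it was 9137 in place of 12151, and for Daxx 2589 in place of 3151. By that length Hira had 2.06 per kilobase, still the lowest, but Ubn2 exceeded it by 1.52 times, and Asf1a was level with Asf1b, at 9.95 beside 9.94, in place of 4.66 beside 8.62. H3f3a was level with Atrx by that length, both at 13.9. The place of H3f3a rests on its own counts: with the pseudogene counts added, over the same annotated exon length, it lay at 67.0 ± 1.51 per kilobase in control (SD, n = 3), above Atrx, although those counts come from copies of the mRNA and not from that length.

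Genes of neighbouring pathways were counted next. Of 25 other chaperones of H3-H4, with their importin and kinases, 1 of 25 was called (4%, beside 15.8% of all tested genes), with a median log2 fold change of -0.03 and a range from -0.14 to 0.11. The gene called was Spty2d1, which encodes a mammalian relative of yeast Spt2. It had 97.2, 96.5 and 98.7 CPM in control and 91.9, 88.7 and 91.9 CPM in cKO, without overlap (log2 fold change -0.10, SE 0.03, adjusted p = 0.0391). The call was lost with total counts as the scaling, with a replicate block, and in every fit that left out 1 sample except the fit without cKO replicate 1.

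Of 24 genes whose products act with H3.3, such as remodellers, readers, PML body and heterochromatin proteins and RPA, 7 were called (29.2%, beside 15.8% of all tested genes), 6 of them lower in cKO (beside 6.46% of all tested genes), and the median was -0.08. Among the falls were those of Ep300, a histone acetyltransferase that modifies H3K27, and of Cbx5, which encodes HP1α. Ep300 had 58.5, 55.3 and 54.7 CPM in control and 47.3, 49.3 and 48.4 CPM in cKO (log2 fold change -0.22, SE 0.04, adjusted p = 0.000938). Cbx5 fell by 0.17 on the log2 scale (adjusted p = 0.000922), and the groups did not overlap in either gene. Morc3 and Nsd2 were also downregulated, with -0.10 each. Their adjusted p was 0.0349 for Morc3 and 0.0491 for Nsd2, the latter just inside the threshold.

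The exception in direction was Sp100, a PML body component inducible by interferon. It had counts of 14, 22 and 18 in the control samples and of 30, 56 and 52 in the cKO samples. As levels these are 0.299 ± 0.0504 against 0.828 ± 0.178 CPM (SD, n = 3 each), and the log2 fold change was 1.47 (SE 0.25, adjusted p = 0.000751). It is the least abundant gene of the list, and the leukocyte markers were higher in the same samples, with a median log2 fold change of 1.01. Whether leukocyte RNA had a part in the Sp100 counts was not tested. The number of called partners was 4 of 24 with total counts as the scaling, with a replicate block and when any 1 control sample was left out. Over all tested genes, 14.1% were called with the block. With total counts 2462 were higher and 1057 lower of 22404, beside 2101 and 1448 in the main fit. With 1 control sample left out, 1571 to 1680 were higher and 917 to 960 lower, of 22801 to 22844 tested. Among protein-coding genes only, 8 partners were called, beside 1943 higher and 1524 lower of 14499 genes. With total counts the number called over all genes was thus close to that of the main fit, while fewer partners were called. With 1 control sample left out, both were lower. How far called partners exceeded the share over all genes thus depended on the setting.

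**Figure D5:**
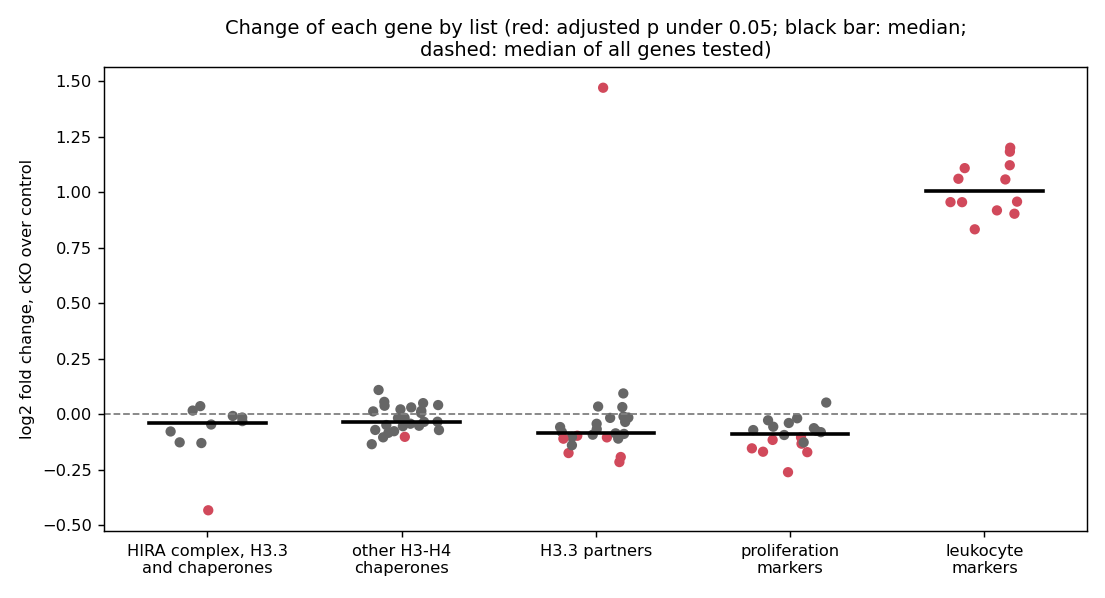
Log2 fold change in cKO over control of each tested gene (points) in 5 lists, with the median of the list (black bar), the median of all tested genes (dashed) and genes with an adjusted p under 0.05 in red. The lists around H3.3 stay between -0.43 and 0.11 apart from Sp100 at 1.47, proliferation markers lie mostly below 0 and leukocyte markers all lie above 0.8.

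The surroundings of the targeted gene were read last. Mrpl40, the nearest tested gene before Hira on chromosome 16 (18872018 to 18876862), had 31.9, 30.6 and 30.5 CPM in control and 31.5, 30.3 and 29.3 CPM in cKO, with overlapping groups (log2 fold change -0.03, adjusted p = 0.711). The nearest after it, Gm10088, had 13 to 29 counts in every sample (adjusted p = 0.494). Of 34 tested genes that start within 1 Mb of the Hira start, 2 were called (5.88%, beside 15.8% of all tested genes), and the median log2 fold change over the 34 was 0.003. Both were higher in cKO (beside 9.38% of all tested genes), among them Slc25a1 (0.20), named after its values were seen, and neither call held when any 1 control sample was left out.

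The 5 genes whose log2 CPM over the 6 samples followed that of Hira most closely, out of 15221 with a mean count of at least 100, were Spin1, Ltn1, Gm6227, Nfatc3 and Celf1. Their Pearson r was 0.998 to 0.999 over 6 samples, a description with no test, since so many genes were searched in so few samples of 2 groups. Spin1, which encodes a reader of methylated H3K4, had 81.9, 74.5 and 75.0 CPM in control and 58.5, 70.5 and 69.5 CPM in cKO. As in Hira, control replicate 1 was the highest and cKO replicate 1 the lowest.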

How the data were processed

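The authors aligned single-end reads of 75 bp to mm10 with Bowtie2 2.3.4.2 and counted them per gene with featureCounts 1.6.3, and the deposited values used here are these raw counts. Strand and overlap settings are not given in the sources used here and were read from the files, as described above. The deposited table of normalized counts and the deposited comparison, which holds fold changes and p-values from DESeq2 2.11.40.6, were not used. Counts were tested with edgeR 4.0.16 in R 4.3.3 (filterByExpr, TMM, quasi-likelihood test, genotype as the only term) over 22404 genes, and 95% intervals came from the same fit, with the standard error taken as the fold change over the root of F. The common variation between replicates was 3.92%. Single values were compared with exact permutation tests in scipy 1.17.1. The steps were tested on simulated counts of 22404 genes for this comparison, with 200 genes changed by a log2 fold change of 1 or -1. Of these, 84.5% were recovered, and 7.14% of the calls were false. Every estimate for the 10 members was smaller in size, and recovery of changes that small was not simulated. No pair of libraries agreed within sampling noise. Lists and members were chosen with earlier results of these data known. Named were the members, up to 3 called rises and 3 called falls per list, the genes that overlap or flank Hira, the 5 genes most like Hira and the matching pseudogenes. Some genes that this rule names are not reported here.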

Additional observations from a re-analysis of the deposited data

How the results depend on the processing

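The replicate numbers did not pair the samples: deviations of same-numbered control and cKO samples correlated at -0.05, -0.03 and -0.02. With a replicate block the Hira log2 fold change was -0.44 (adjusted p = 0.0465). That fit called 1 of the 10 members, 0 other chaperones, 4 partners and 1 neighbour within 1 Mb, beside 14.1% of all tested genes. The mean differences of the 3 ratios and of the summed H3.3 level (12.7 CPM) were those without the block by construction. When samples were left out singly, the Hira log2 fold change ranged from -0.52 to -0.29 and its adjusted p from 0.0124 to 0.104. The same 6 fits called 0 to 2 members, 0 to 1 other chaperones, 4 to 8 partners and 0 to 2 neighbours of Hira. Over all genes they called 1571 to 2214 higher and 917 to 1673 lower, of 22721 to 22844 tested. The log2 fold change ranged from -0.0394 to 0.00656 for Cabin1, from -0.043 to 0.043 for Asf1a and from -0.0548 to 0.0251 for H3f3a, none of them called. Members called were 2 with RLE size factors, 2 without a filter on low counts and 2 among protein-coding genes, the second being Ubn2 each time. Over all genes, RLE gave 2054 higher and 1510 lower of 22404. No filter gave 2240 and 1796 of 39816, and protein-coding genes only gave 1943 and 1524 of 14499. Other chaperones called were 2 with DESeq2, 2 without a filter, 2 among protein-coding genes and 0 with total counts. Total counts as the scaling, which moved the median of all genes from -0.0011 to 0.0233 and the share of higher genes among those called from 59.2% to 70%, gave 4 partners, 4 neighbours, and log2 fold changes of 0.00959 for Cabin1 and 0.0164 for H3f3a. Over all genes, total counts gave 2462 higher and 1057 lower of 22404. DESeq2 called 1 neighbour, beside 13.6% of the genes it tested. The cause of these shifts was not tested.

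A length of 75-base windows outside other genes' transcripts, chosen after seeing the data, replaced the planned windows unique in the genome, which were not run because no genome sequence was at hand. Levels in control per kilobase were then 2.06 for Hira, 11.2 for Ubn1, 3.12 for Ubn2, 7.07 for Cabin1, 9.95 for Asf1a, 9.94 for Asf1b, 13.9 for H3f3a, 190 for H3f3b, 13.9 for Atrx and 9.9 for Daxx. Depth limits Hira most, with 161 to 375 counts per sample. Counts without strand can include antisense RNA, and the smallest permutation p for 3 samples against 3 is 0.1.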
